A study of Mus musculus with 15 samples.

Results

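The genes described here are 8 receptors of the tumour necrosis factor (TNF) receptor superfamily, Edar, Eda2r, Tnfrsf1a, Tnfrsf1b, Tnfrsf11b, Tnfrsf12a, Tnfrsf19 and Tnfrsf21, and Edaradd, the adaptor of Edar. They were taken by symbol from the 55416 genes of the count table of a mouse podocyte stretch study, which gives 9 genes, and they were chosen by family and with their counts in stretched and unstretched samples already known. Values of the members in the stretch comparisons are therefore a description. Where calls from fits over all genes are printed for them, they stand beside the share of all genes called and support nothing. All samples are SVI cells, a conditionally immortalised mouse podocyte line. Podocytes are epithelial cells whose foot processes enclose the filtering capillaries of the kidney. Differentiated cells were plated on flexible silicone membranes, which were left still or deflected up and down. Experiment 1 held 6 low-stretch samples, labelled with a deflection of 5 to 6 mm, and 3 unstretched samples. Experiment 2 held 3 high-stretch samples, labelled 7 to 8 mm, and 3 unstretched samples. Amplitude and experiment cannot be told apart, so each stretched group was set against the unstretched samples of its own experiment. No agent or genetic change is named for any group, and the labels do not say whether replicates are separate cultures, so a p-value here measures the spread between these samples.

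TNF receptors bind trimeric ligands at the cell surface and pass the signal to TRAF adaptors, which lead to NF-kB and MAP kinase pathways, or to death domain adaptors, which can lead to cell death. Edar binds ectodysplasin A1 and, through Edaradd, drives NF-kB in the development of hair, teeth and sweat glands. Eda2r binds ectodysplasin A2, another isoform of the same ligand gene, and is a target gene of p53. In the glomerulus the family is best known through the receptors of TNF, Tnfrsf1a and Tnfrsf1b.

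Total gene counts ranged from 262 to 396.7 M (megacounts) per sample in experiment 1 and from 172.2 to 297.6 M in experiment 2, so 1 CPM (count per megacount) stands for more than 100 counts in each library. Unstretched replicate 3 of experiment 2 stood apart from its group in depth (264.5 M counts against 172.2 and 181.4) and in the mitochondrial share of its counts (2.6% against 1.15% and 1.56%). Podocyte markers were present in part: summed levels of the 10 genes listed were 1530 to 3260 CPM over all samples, mostly from Actn4, Synpo and Kirrel, whereas Ptpro was at most 0.0151 CPM and Nphs1 (nephrin) at most 1 CPM. The summed level of 7 tubular markers was 1290 to 1910 CPM in unstretched and 638 to 1050 CPM in low-stretch samples, and 1680 to 2220 CPM in unstretched and 584 to 640 CPM in high-stretch samples, almost all from Lrp2, Cdh16 and Aqp1, while Slc34a1 and Umod were near 0. Slc12a1 of this list was higher under low stretch, with 0.491 to 0.723 CPM against 0.272 to 0.437 CPM in unstretched samples, without overlap. In experiment 2 the Slc12a1 groups overlapped. The 7 immune cell markers summed to 23.5 to 26.2 CPM in unstretched samples and 6.73 to 13.1 CPM in low-stretch samples of experiment 1, and to 23.8 to 26.2 CPM and 5.91 to 9.87 CPM in experiment 2, mostly Csf1r, with Ptprc, Adgre1 and Cd3e at or near 0. Cd68 of this list went the other way under high stretch, with 1.59 to 2.16 CPM against 0.754 to 1.26 CPM in unstretched samples, without overlap. In experiment 1 the Cd68 groups overlapped. The 6 mesangial and fibroblast markers, mostly Acta2, summed to 1260 to 2000 and 1510 to 3940 CPM in unstretched and low-stretch samples, and to 2550 to 7230 and 6530 to 10500 CPM in unstretched and high-stretch samples. In the same list Pdgfrb had log2 fold changes of -0.56 under low and -0.42 under high stretch, with overlapping groups under high stretch. Dcn had -0.43 and -1.93, with overlap in both experiments. Itga8, at most 0.0351 CPM in any sample, was lower under high stretch without overlap. Col1a1 was higher there, with 0.862 to 1.06 CPM against 0.425 to 0.55 CPM in unstretched samples, without overlap. In experiment 1 the Itga8 and Col1a1 groups overlapped. The 6 endothelial markers summed to at most 0.272 CPM, with overlapping ranges in both experiments. Marker genes called by edgeR (adjusted p under 0.05) were Lrp2, Cdh16, Pdgfrb and Csf1r under low stretch and Aqp1, Cdh16, Csf1r and the podocyte marker Wt1 (5.15-fold lower) under high stretch, each lower. The part of these genes in the results below was not tested. Fewer cells of a type and less RNA per cell cannot be told apart in such bulk samples.

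The sequences around the start sites of Edar and Tnfrsf19, both lower in stretched samples, and of Tnfrsf21, which was higher, are shown because these 3 members had the largest absolute log2 fold changes under high stretch. Each run holds 300 bases of mouse RefSeq sequence in build GRCm38.p6, from 250 bases before the start site to 50 after it, written 5′ to 3′ on the gene's strand. Capitals mark CATTCC, the core recognised by TEAD factors, and CACGTG, an E-box recognised by factors of the Myc and USF kind.
Edar, minus strand, chr10:58675647-58675946: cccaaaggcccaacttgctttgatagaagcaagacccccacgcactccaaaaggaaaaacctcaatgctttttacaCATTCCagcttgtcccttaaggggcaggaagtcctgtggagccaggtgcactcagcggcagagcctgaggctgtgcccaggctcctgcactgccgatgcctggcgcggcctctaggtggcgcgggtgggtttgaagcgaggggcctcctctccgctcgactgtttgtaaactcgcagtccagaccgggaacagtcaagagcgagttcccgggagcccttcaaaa
Tnfrsf19, minus strand, chr14:61037938-61038237: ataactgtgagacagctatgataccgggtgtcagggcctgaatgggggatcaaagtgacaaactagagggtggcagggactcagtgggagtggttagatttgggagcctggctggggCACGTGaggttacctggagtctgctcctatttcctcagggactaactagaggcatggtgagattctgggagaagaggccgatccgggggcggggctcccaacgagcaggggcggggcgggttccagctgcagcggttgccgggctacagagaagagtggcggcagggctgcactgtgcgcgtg
Tnfrsf21, plus strand, chr17:43016305-43016604: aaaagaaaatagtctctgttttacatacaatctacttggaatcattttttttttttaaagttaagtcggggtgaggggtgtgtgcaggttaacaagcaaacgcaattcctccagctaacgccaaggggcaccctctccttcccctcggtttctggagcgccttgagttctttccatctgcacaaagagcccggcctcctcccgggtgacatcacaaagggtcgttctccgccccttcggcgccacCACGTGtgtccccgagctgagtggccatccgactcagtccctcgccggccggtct
The Tnfrsf19 window is the one at the start of transcript Tnfrsf19-202, which held most of that gene's abundance in each group. The Edar window had CATTCC at position -174 from the start site, the Tnfrsf19 window had CACGTG at -133 and the Tnfrsf21 window had CACGTG at -5. RefSeq gave 9 windows for 8 of the members, and none was found for Tnfrsf11b. On both strands, CATTCC matched in the windows of 3 members (Edar, Eda2r and Tnfrsf1b), against 14.7% of 32851 promoter windows of the same length, and CACGTG in those of 3 members (Eda2r, Tnfrsf19 and Tnfrsf21), against 7.15%. The AP-1 site TGACTCA was in 0 members' windows (5.2% of all promoters), as were the NF-kB motif (8.46%), the SRF CArG box (1.63%) and the p53 response element core (8.36%). A match is a stretch of letters and shows no binding.

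Levels of different genes were compared per length, as TPM (a share of transcripts scaled to length and library) summed over each gene's transcripts. Tnfrsf12a, the receptor for TWEAK, was highest in each of the 4 groups, at 272 ± 146 TPM (SD, n = 3) in unstretched samples of experiment 1, 436 TPM (n = 6) under low stretch, 410 TPM (n = 3) in unstretched samples of experiment 2 and 785 TPM (n = 3) under high stretch. Tnfrsf1a, the widely expressed TNF receptor, followed with 159, 139, 213 and 170 TPM in the same order, and Eda2r was the next with 55, 48, 18.3 and 17.4 TPM. The ranges of Tnfrsf12a and Tnfrsf1a overlapped in the unstretched samples of experiment 1 and were apart in the other 3 groups. Tnfrsf21, a death domain receptor also called DR6, was lower again, with group means from 2.43 to 6.51 TPM. Tnfrsf19, Tnfrsf1b and Edar were next, at 1.1, 0.593 and 0.579 TPM in unstretched samples of experiment 1 with overlapping ranges. Their order changed under stretch: Tnfrsf1b had 0.792 TPM, Tnfrsf19 0.182 TPM and Edar 0.0488 TPM under low stretch, and 1.14, 0.187 and 0.0185 TPM under high stretch, where the ranges of Tnfrsf1b, Tnfrsf19 and Edar were apart from each other. Edaradd had group means of at most 0.0304 TPM. Tnfrsf11b, which encodes the secreted decoy receptor osteoprotegerin, had 0 counts in all 15 samples, which allows at most 0.00682 to 0.0222 CPM per library (3 counts, counting error only), and its transcript was listed at 0. The other 8 members passed the filter on low counts in both stretch comparisons.

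**Figure D1:**
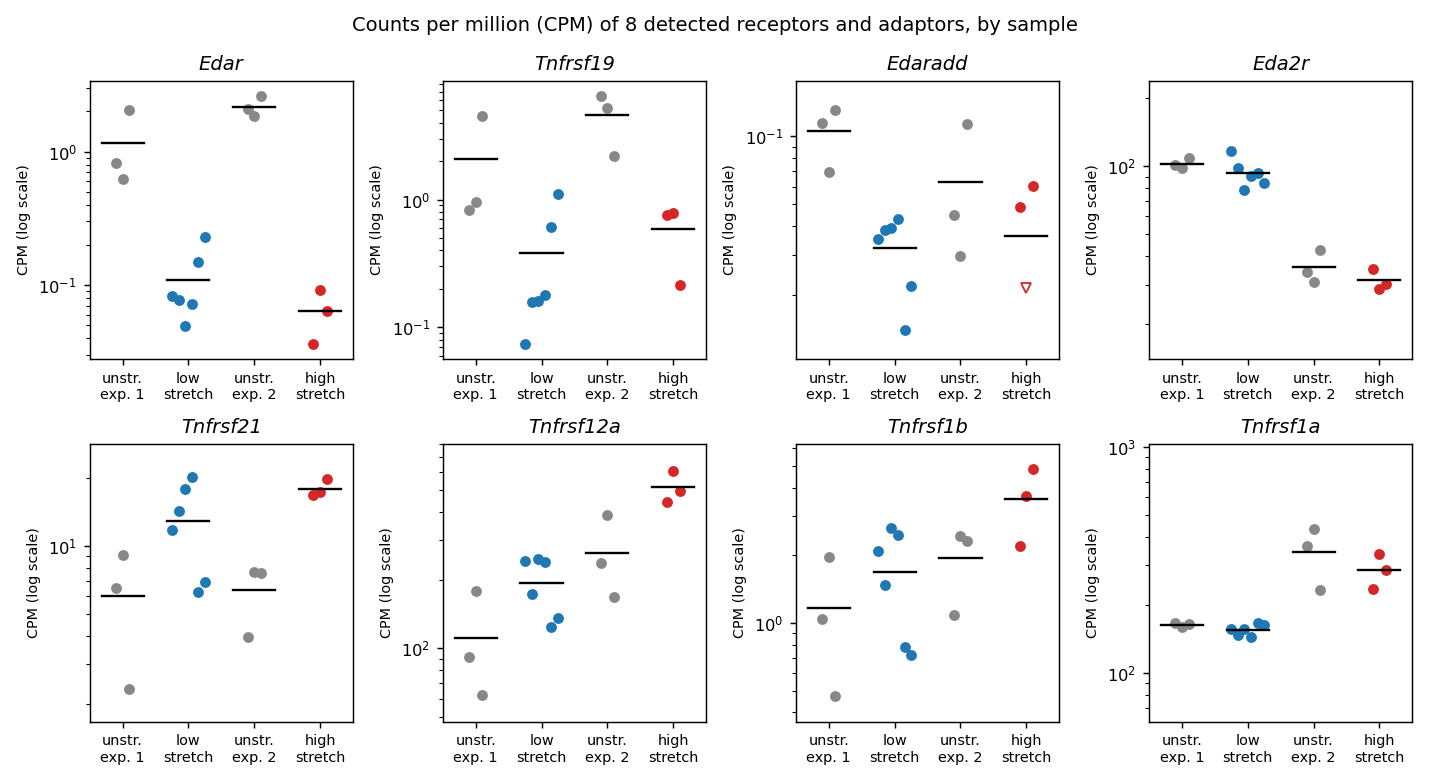
Level of the 8 detected members in each sample, in CPM on a log axis. Points are samples, lines are group means, and the open triangle stands for a sample with 0 counts of Edaradd, drawn at the level of 3 counts. Edar lies between 0.619 and 2.6 CPM in unstretched samples and between 0.0364 and 0.229 CPM in stretched samples, whereas Eda2r differs mainly between the experiments.

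Edar, the ectodysplasin A1 receptor, was lower in every stretched sample than in every unstretched sample of its experiment. The 3 unstretched samples of experiment 1 had 0.829, 0.619 and 2.05 CPM, and the 6 low-stretch samples had a lowest value of 0.0493, a median of 0.0802 and a highest value of 0.229 CPM. The unstretched samples of experiment 2 had 2.07, 1.84 and 2.6 CPM and the high-stretch samples 0.0364, 0.0922 and 0.0645 CPM. The highest stretched sample of either experiment was thus below the lowest unstretched one. The level was 10.6-fold lower under low stretch (log2 fold change -3.40, SE 0.47) and 34.4-fold lower under high stretch (-5.10, SE 0.38). Without unstretched replicate 3 of experiment 1, the sample at 2.05 CPM, the low-stretch value was -2.73 (SE 0.43). These values rest on 9 to 16 counts per high-stretch library and 15 to 73 per low-stretch library, against 205 to 714 in the unstretched libraries. Without unstretched replicate 3 of experiment 2, the high-stretch value was -4.93.

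The labels carry codes that read as consecutive plate positions. Their order was divided here before each unstretched sample into 6 runs, a reading that the labels do not state, and each run holds 1 unstretched sample with 2 low-stretch samples or 1 high-stretch sample. Within the 3 runs of experiment 1 the log2 ratio of stretched to unstretched Edar lay between -3.44 and -3.36. Within the 3 runs of experiment 2 it lay between -5.83 and -4.32. Unstretched levels differed between runs of experiment 1 (0.619 to 2.05 CPM), and the run with the highest unstretched level also had the highest stretched level, 0.189 CPM.

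Edaradd, which links Edar to NF-kB signalling, was close to the detection limit, with 0 to 41 counts per library. Unstretched samples of experiment 1 had 0.115, 0.0695 and 0.131 CPM and low-stretch samples 0.0139 to 0.043 CPM with a median of 0.0369, so that the groups did not overlap. The log2 fold change was -1.70 (SE 0.33). In experiment 2 the unstretched samples had 0.0451, 0.0296 and 0.113 CPM and the high-stretch samples 0.0486, 0 and 0.0605 CPM, which overlapped (-0.73, SE 0.82). Eda, the gene of the ligand, had 1 to 11 counts per library in all groups and was not tested.

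Eda2r, the ectodysplasin A2 receptor, was abundant and did not follow Edar. Low-stretch samples had 78.7 to 117 CPM with a median of 91.7, around the 101, 97.9 and 109 CPM of the unstretched samples. High-stretch samples had 35, 28.6 and 30.3 CPM, against 34, 30.7 and 42.7 CPM. Both pairs of groups overlapped, with log2 fold changes of -0.14 (SE 0.11) and -0.18 (SE 0.20). Without unstretched replicate 3 of experiment 2 the high-stretch value was 0.01.

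**Figure D2:**
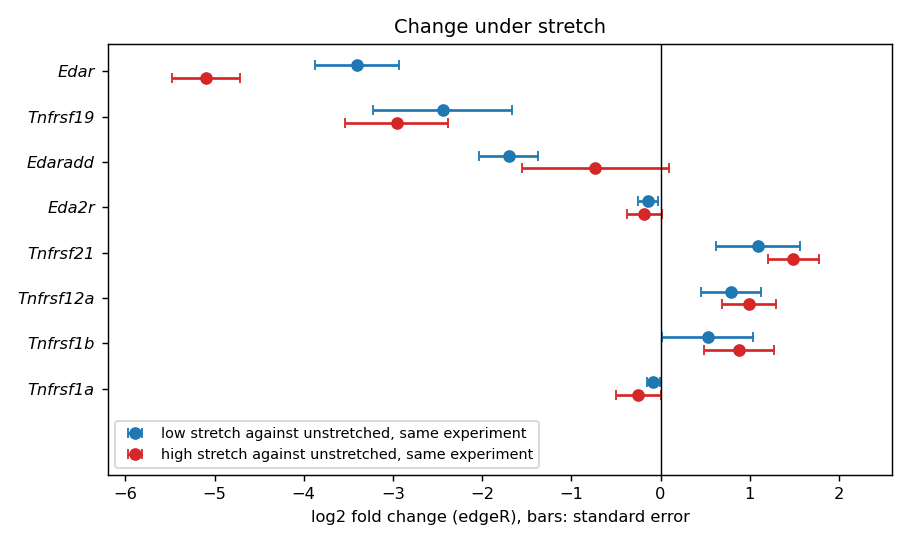
Log2 fold change of each detected member under low stretch (blue, 6 against 3 samples) and high stretch (red, 3 against 3), with its standard error. Edar and Tnfrsf19 lie furthest below 0 in both comparisons, and Tnfrsf21 and Tnfrsf12a lie above 0.

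Tnfrsf19, an orphan receptor also known as TROY, had the next most negative log2 fold changes after Edar in both experiments. Unstretched samples of experiment 1 had 0.835, 0.949 and 4.48 CPM and low-stretch samples 0.0735 to 1.11 CPM with a median of 0.17. Low-stretch replicate 6, at 1.11 CPM, was above the 2 lower unstretched samples, so these groups overlapped. Unstretched samples of experiment 2 had 6.51, 5.2 and 2.18 CPM and high-stretch samples 0.761, 0.78 and 0.214 CPM, without overlap. The log2 fold changes were -2.44 (SE 0.78, 5.44-fold lower) and -2.96 (SE 0.58, 7.76-fold lower). The low-stretch value rests in part on single samples: it was -1.24 (SE 0.79) without unstretched replicate 3, the sample at 4.48 CPM, and -3.14 (SE 0.70) without low-stretch replicate 6. Within runs, Tnfrsf19 was lower in 3 of 3 runs of experiment 1, with log2 ratios of -2.84 to -2.37, and in 3 of 3 runs of experiment 2 (-3.35 to -2.74). The 1.11 CPM sample shared its run with the unstretched sample at 4.48 CPM. The annotated antisense gene Gm41168 overlaps Tnfrsf19 and was counted at no more than 0.0032 CPM. The strand setting of the counting is not given in the sources used here, so where reads of the overlap were assigned is unknown.

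Tnfrsf21 was higher with stretch. Unstretched samples of experiment 1 had 6.53, 9.11 and 2.34 CPM and low-stretch samples 6.25 to 20.2 CPM with a median of 13, and these groups overlapped. Unstretched samples of experiment 2 had 3.97, 7.67 and 7.6 CPM and high-stretch samples 16.7, 17.3 and 19.7 CPM, without overlap. The log2 fold changes were 1.09 (SE 0.47) and 1.49 (SE 0.29, 2.82-fold higher). Within runs the log2 ratio was 0.99 to 1.5 in experiment 1 and 1.18 to 2.07 in experiment 2, higher in all 6 runs.

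Tnfrsf12a also had higher levels in stretched samples. Unstretched samples of experiment 1 had 91.3, 179 and 62.3 CPM and low-stretch samples 124 to 248 CPM with a median of 207. High-stretch samples had 444, 610 and 497 CPM, above the 238, 388 and 169 CPM of their unstretched samples. The groups overlapped in experiment 1 and not in experiment 2, and the log2 fold changes were 0.79 (SE 0.34) and 0.99 (SE 0.30). In each of the 6 runs the stretched level was higher than the unstretched level, by 0.45 to 1.19 on the log2 scale in experiment 1 and by 0.65 to 1.56 in experiment 2.

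The receptors of TNF itself differed less. Tnfrsf1b had 1.04, 1.97 and 0.472 CPM in unstretched and 0.723 to 2.65 CPM in low-stretch samples, and 1.09, 2.44 and 2.31 CPM in unstretched and 2.21, 3.67 and 4.84 CPM in high-stretch samples. Both pairs of groups overlapped (log2 fold changes 0.53, SE 0.51, and 0.88, SE 0.39). The low-stretch value was 1.17 without unstretched replicate 2. Within runs the stretched level was higher in 3 of 3 runs of each experiment. Tnfrsf1a had 166, 160 and 165 CPM in unstretched and 145 to 166 CPM in low-stretch samples, and 364, 433 and 232 CPM in unstretched and 234, 334 and 284 CPM in high-stretch samples. Its log2 fold changes were -0.08 (SE 0.07) and -0.25 (SE 0.25). In CPM both pairs of Tnfrsf1a groups overlapped. In TPM the high-stretch samples, at 161 to 180, were below the 191 to 231 of their unstretched samples, without overlap, and the groups of experiment 1 overlapped.

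**Figure D3:**
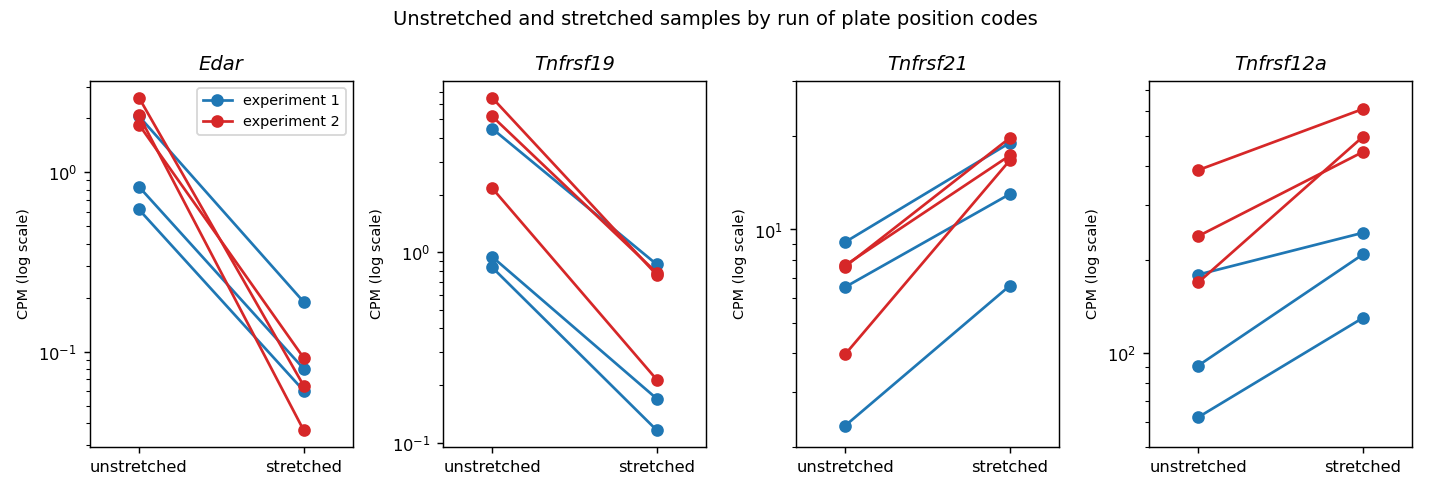
Unstretched and stretched level within each of the 6 runs of plate position codes, as divided here, for Edar, Tnfrsf19, Tnfrsf21 and Tnfrsf12a, in CPM on a log axis. Each line joins the unstretched sample of a run to its stretched sample, or to the mean of its 2 stretched samples in experiment 1. Lines for Edar and Tnfrsf19 go down in all 6 runs and lines for Tnfrsf21 and Tnfrsf12a go up in all 6.

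In edgeR's quasi-likelihood fit over all genes (adjusted by Benjamini-Hochberg), 2 of the 8 members tested (Edar and Edaradd, both lower) had an adjusted p under 0.05 under low stretch, where 5.45% of 21672 genes did (3.6% lower, 1.85% higher). Under high stretch there were 3 (Edar and Tnfrsf19 lower, Tnfrsf21 higher), where 3.47% of 18524 genes did (2.16% lower, 1.31% higher). In CPM the groups did not overlap for 2 members under low stretch (both lower), against 15.3% of the genes tested (7.47% lower, 7.81% higher). They did not overlap for 4 under high stretch (2 lower and 2 higher), against 20.6% (10.7% lower, 9.97% higher). The members were picked with these comparisons known, so nothing is read from these counts. Edaradd lost its call without unstretched replicate 1 or 3 (log2 fold changes -1.63 and -1.52), and under high stretch Tnfrsf19 and Tnfrsf21 lost theirs without unstretched replicate 1 (-2.64 and 1.24) or high-stretch replicate 1 (-3.22 and 1.53), 2 (-3.17 and 1.56) or 3 (-2.53 and 1.46). With the run as a block, 6 members passed under low stretch (all but Eda2r and Tnfrsf1a of those tested), where 28.2% of genes did, and 5 under high stretch (Edar, Tnfrsf1b, Tnfrsf12a, Tnfrsf19 and Tnfrsf21), where 8.35% did.

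Whether the size of the difference itself differed between amplitudes was computed as a contrast over all 15 samples, from the same values that were known when the members were chosen. For 0 of the 8 members and 0 of 22015 genes the adjusted p was under 0.05 with edgeR's quasi-likelihood test, and DESeq2 called 0% of genes as well, although 547 genes (2.48%) had an unadjusted p under 0.05. Edar, with a difference of -1.72 (SE 0.72), was the member with the largest value, and the adjusted p was 1 for each of the 8 in this edgeR fit. Edar was the 1 member with an unadjusted p under 0.05. With the run block 0 members passed, where 0.0136% of genes did. For Tnfrsf19 the difference was -0.55 (SE 1.14), for Tnfrsf21 0.38 (SE 0.60) and for Tnfrsf12a 0.16 (SE 0.49).

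The unstretched cells of the 2 experiments were also compared with each other. These samples are the reference of both stretch comparisons, and their counts were known when the members were chosen. The p-values of this comparison are therefore a description as well. Eda2r was 2.90-fold lower in experiment 2 (log2 fold change -1.54, SE 0.18, adjusted p = 0.00533, edgeR), and all 3 samples of experiment 2 were below all 3 of experiment 1. Tnfrsf1a was 2.07-fold higher (1.05, SE 0.24, adjusted p = 0.00692, edgeR), without overlap, and Tnfrsf12a 2.36-fold higher (1.24, SE 0.43, adjusted p = 0.0332, edgeR), with overlap. The other members tested did not pass. Tnfrsf1b had 0.73, and 0.35 to 1.35 with 1 sample left out. Edar had 0.88 (SE 0.43), Edaradd -0.66 (SE 0.51), Tnfrsf19 1.14 (SE 0.67) and Tnfrsf21 0.08 (SE 0.47). Single samples moved 3 of these: without unstretched replicate 3 of experiment 1, Edar had 1.56 (SE 0.32) and Tnfrsf19 2.35 (SE 0.49), each with adjusted p = 0.0234 (edgeR), and without unstretched replicate 3 of experiment 2, Edaradd had -1.52 (SE 0.50, adjusted p = 0.025, edgeR). The 3 calls of 8 in the main fit were Tnfrsf1a and Tnfrsf12a (higher) and Eda2r (lower). They stand beside 62.5% of 20707 genes called in that fit (29.7% higher, 32.7% lower). The 2 members without overlap (1 higher, 1 lower) stand beside 72.9% of genes (35.2% higher, 37.7% lower). The longest transcript of Eda2r has 40.9% GC, and those of Tnfrsf1a and Tnfrsf12a have 55.9% and 57.9%. After a correction for GC content, added once the data were seen, 0 members passed. The values were then 0.01 for Eda2r, 0.29 for Tnfrsf1a and 0.40 for Tnfrsf12a. The share of all genes called after the correction is not given here, and whether GC content was a cause was not tested. Tnfrsf12a lost its call without unstretched replicate 1 or 3 of experiment 1 (1.11 and 0.95) or replicate 1 or 2 of experiment 2 (1.33 and 0.87).

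Eda2r has 4 annotated transcripts, and their shares of its TPM differed between the experiments. Eda2r-201, protein coding, held 58.2%, 56.8% and 56.5% in the unstretched samples of experiment 1 and 26.8%, 22% and 43% in those of experiment 2. Eda2r-204, annotated with a retained intron, held 0.245%, 0.0779% and 0.335% and then 22.5%, 25.9% and 9.63%. Each sample of experiment 2 was thus beyond the range of experiment 1, with unstretched replicate 3 nearest to it. Eda2r-203, also a retained intron transcript, held 40.2% ± 0.790 (SD, n = 3) and 44.2% ± 1.47 (SD, n = 3). Over all genes, transcripts with a retained intron held less of the TPM in experiment 2 (3.08% ± 0.273, SD, n = 3) than in experiment 1 (4.75% ± 0.271, SD, n = 3). The shares did not overlap between the unstretched groups for 53.3% of 26595 transcripts. A limma test of the share of each transcript against the gene's other transcripts, added after these levels were seen, gave adjusted p = 0.0218 for Eda2r-201 (log2 change -1.63, SE 0.35) and 0.0361 for Tnfrsf19-202 (-0.88, SE 0.24), where 31.5% of 26597 transcripts passed (46% at an unadjusted p under 0.05). It called 0 member transcripts without unstretched replicate 1 or 3 of experiment 1 or replicate 1 of experiment 2, when 0 transcripts of any gene passed. It called 1 without replicate 2 of experiment 1 (Eda2r-204) and 1 without replicate 2 or replicate 3 of experiment 2 (Eda2r-201).

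**Figure D4:**
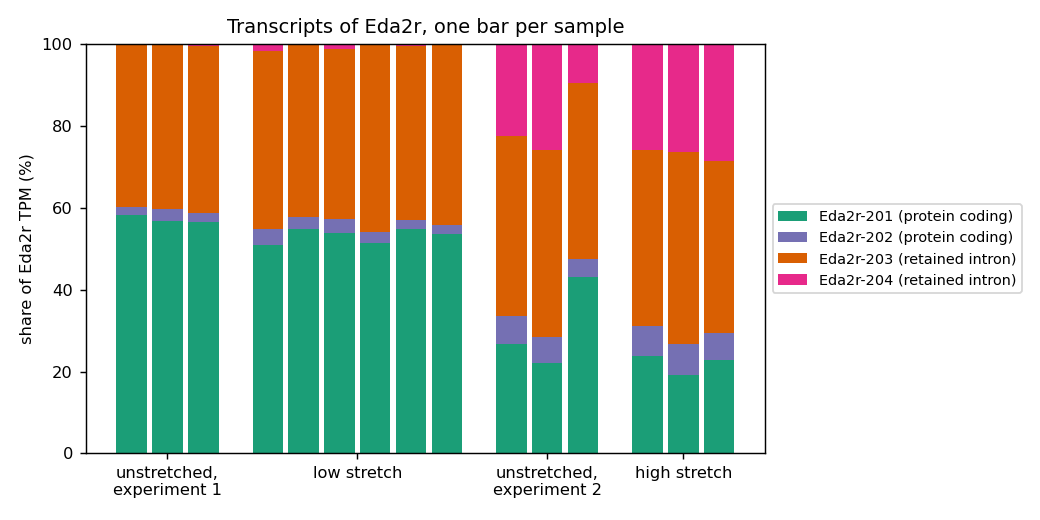
Share of the Eda2r TPM held by each of its 4 annotated transcripts, in percent, with 1 bar per sample. Eda2r-201 holds 50.9% to 58.2% in the samples of experiment 1 and 19.1% to 43% in those of experiment 2, and Eda2r-204 at most 1.68% and at least 9.63%.

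Under stretch the Eda2r transcripts moved less. Eda2r-201 held 53.2% ± 1.67 (SD, n = 6) under low stretch, below each unstretched sample of experiment 1, and its log2 change against the other transcripts was -0.23 (SE 0.08, adjusted p = 0.386, limma). Under high stretch it held 21.8% ± 2.46 (SD, n = 3), and the log2 change was -0.61 (SE 0.36, adjusted p = 0.728, limma). Eda2r-204 held 27% ± 1.41 (SD, n = 3) under high stretch, above the 19.3% ± 8.57 (SD, n = 3) of the unstretched samples without a called change (0.73, SE 0.44, adjusted p = 0.727, limma). Of the 3 member transcripts tested under low stretch 0 passed (2, both of Eda2r, had an unadjusted p under 0.05), where 0.0144% of 27720 transcripts did (10% at an unadjusted p under 0.05), and of the 4 tested under high stretch 0 passed (0 unadjusted), where 0% of 23408 did (8.04% unadjusted). Edar and Edaradd have a single annotated transcript each and could not be tested this way.

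The ligands of these receptors were mostly at or near 0. Tnf had at most 4 counts, Tnfsf11 (RANKL) at most 1 and Tnfsf10 (TRAIL) at most 9 counts in any library, and these were not tested. Lta (lymphotoxin alpha), which binds both TNF receptors, had 0.229 to 0.773 CPM over all samples. Its log2 fold changes were 0.03 (SE 0.36, adjusted p = 0.966, edgeR) under low and -0.70 (SE 0.25, adjusted p = 0.239, edgeR) under high stretch. High-stretch samples had 0.351 to 0.482 CPM of Lta against 0.674 to 0.724 CPM in unstretched samples, without overlap. In experiment 1 the Lta groups overlapped. Tnfsf12 (TWEAK), the ligand of Tnfrsf12a, had 3.53 to 4.98 CPM in experiment 1 and 6.73 to 14.6 CPM in experiment 2, with log2 fold changes of -0.22 (SE 0.12, adjusted p = 0.298, edgeR) and -0.33 (SE 0.30, adjusted p = 0.767, edgeR). Of the 18 ligands listed, 7 were tested under low stretch and 1 passed: Tnfsf18 (GITR ligand) fell from 0.0561 to 0.0846 CPM in unstretched to 0.00695 to 0.0251 CPM in low-stretch samples (-2.11, SE 0.36, adjusted p = 0.0101, edgeR). These Tnfsf18 values rest on 19 to 28 counts per unstretched library and 2 to 10 per low-stretch library. Under high stretch 6 ligands were tested and 0 passed in edgeR or DESeq2, with 1 at an unadjusted p under 0.05. Of all genes 5.45% passed under low and 3.47% under high stretch in edgeR.

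Among 20 other TNF receptors, 1 rose and 3 fell under low stretch (14 tested), beside 1.85% and 3.6% of all genes. Under high stretch 2 rose and 1 fell (12 tested), beside 1.31% and 2.16% of all genes. Tnfrsf22, a decoy receptor for TRAIL, rose from 6.2 to 8.46 CPM in unstretched to 10.7 to 37.6 CPM in low-stretch samples (1.46, SE 0.37, adjusted p = 0.0484, edgeR) and from 4.65 to 4.76 CPM to 10.4 to 27.4 CPM in high-stretch samples (1.92, SE 0.36, adjusted p = 0.0317, edgeR). Its neighbour and close copy Tnfrsf23 rose under high stretch (2.33, SE 0.34, adjusted p = 0.0142, edgeR) and had 1.56 (SE 0.47, adjusted p = 0.0812, edgeR) under low stretch. Reads of these similar genes could have been split by the counting, so both values are uncertain. Tnfrsf25, a death receptor, fell in both comparisons, by 1.09 (SE 0.28, adjusted p = 0.0481, edgeR) and by 1.44 on the log2 scale (SE 0.27, adjusted p = 0.0289, edgeR). Tnfrsf14 (-1.50, SE 0.33, adjusted p = 0.0278, edgeR) and Fas (-0.82, SE 0.11, adjusted p = 0.00507, edgeR) fell under low stretch. Under high stretch Tnfrsf14 had -1.44 (SE 0.47, adjusted p = 0.181, edgeR), and its groups did not overlap in either experiment. Fas, the receptor of Fas ligand and a p53 target, had 14.7 to 17.9 CPM in unstretched and 8.05 to 10.9 CPM in low-stretch samples, without overlap. Under high stretch Fas had -0.50 (SE 0.24, adjusted p = 0.404, edgeR), with 5.91 to 8.37 CPM against 8.97 to 11.3 CPM, also without overlap.

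Of 21 adaptors and kinases, which act downstream of the receptors, all were tested under low stretch and 1 passed, where 5.45% of all genes did: Traf5 fell by 0.61 on the log2 scale (SE 0.10, adjusted p = 0.00753, edgeR). Under high stretch Traf5 had -0.61 as well (SE 0.17, adjusted p = 0.125, edgeR), and its groups did not overlap in either experiment. Traf6, which Edaradd engages, had 0.03 (SE 0.07) under low and -0.04 (SE 0.25) under high stretch. Under high stretch 0 of 20 adaptors and kinases passed in edgeR or DESeq2, with 2 at an unadjusted p under 0.05. Of all genes 3.47% passed there in edgeR. Of 13 NF-kB subunits and inhibitors, Tnfaip3 (A20, an enzyme that restrains NF-kB signalling) rose in both comparisons. It had 10.8 to 22.8 CPM in unstretched and 23.3 to 61.5 CPM in low-stretch samples (1.37, SE 0.35, adjusted p = 0.0473, edgeR), and 14.1 to 19.7 CPM in unstretched and 58.6 to 86.5 CPM in high-stretch samples (2.09, SE 0.24, adjusted p = 0.00641, edgeR), without overlap in either. Bcl3, an atypical inhibitor protein, fell under high stretch (-1.59, SE 0.33, adjusted p = 0.0424, edgeR). Under low stretch Bcl3 had -0.87 (SE 0.27, adjusted p = 0.0821, edgeR), and its groups did not overlap in either experiment. Nfkbia, the classical inhibitor, had -0.03 (SE 0.12) and -0.33 (SE 0.22). In this list 1 gene rose under low stretch, beside 1.85% of all genes. Under high stretch 1 rose and 1 fell, beside 1.31% and 2.16% of all genes.

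Of 22 NF-kB target genes, 16 were tested under low stretch, where Tnfaip3 rose and 2 fell, beside 1.85% and 3.6% of all genes. Csf1, a macrophage growth factor, fell from 944 to 1170 CPM to 614 to 763 CPM (-0.59, SE 0.10, adjusted p = 0.00957, edgeR). Under high stretch Csf1 had -0.36 without a call, at 1170 to 1270 CPM against 1550 to 1680 CPM in unstretched samples, without overlap. Ccl20, a chemokine, fell by 2.73 on the log2 scale (SE 0.56, adjusted p = 0.0222, edgeR) at 1 to 41 counts per library. Under high stretch Tnfaip3 alone passed among the 14 tested, where 3.47% of all genes did. Birc3 had -0.23 (SE 0.29) under low and -0.24 (SE 0.43) under high stretch. The median log2 fold change of this list was -0.20 under low and -0.25 under high stretch, beside 0.01 and -0.02 over all genes tested. Of 20 p53 target genes, Fas, Bbc3 (PUMA; -0.45, SE 0.08, adjusted p = 0.013, edgeR) and Sesn2 (-0.40, SE 0.09, adjusted p = 0.0309, edgeR) fell under low stretch. All 20 were tested in both comparisons, and 5.45% of all genes passed under low and 3.47% under high stretch in edgeR. Under high stretch 0 p53 target genes passed in edgeR, with 1 at an unadjusted p under 0.05, and 1 passed in DESeq2. Bbc3 there had -0.67 (SE 0.32, adjusted p = 0.391, edgeR), with overlapping groups, and the difference between its stretch effects was -0.25 (SE 0.31). Cdkn1a had 0.03 (SE 0.20) and 0.23 (SE 0.29) and Mdm2 0.02 (SE 0.15) and 0.39 (SE 0.38).

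**Figure D5:**
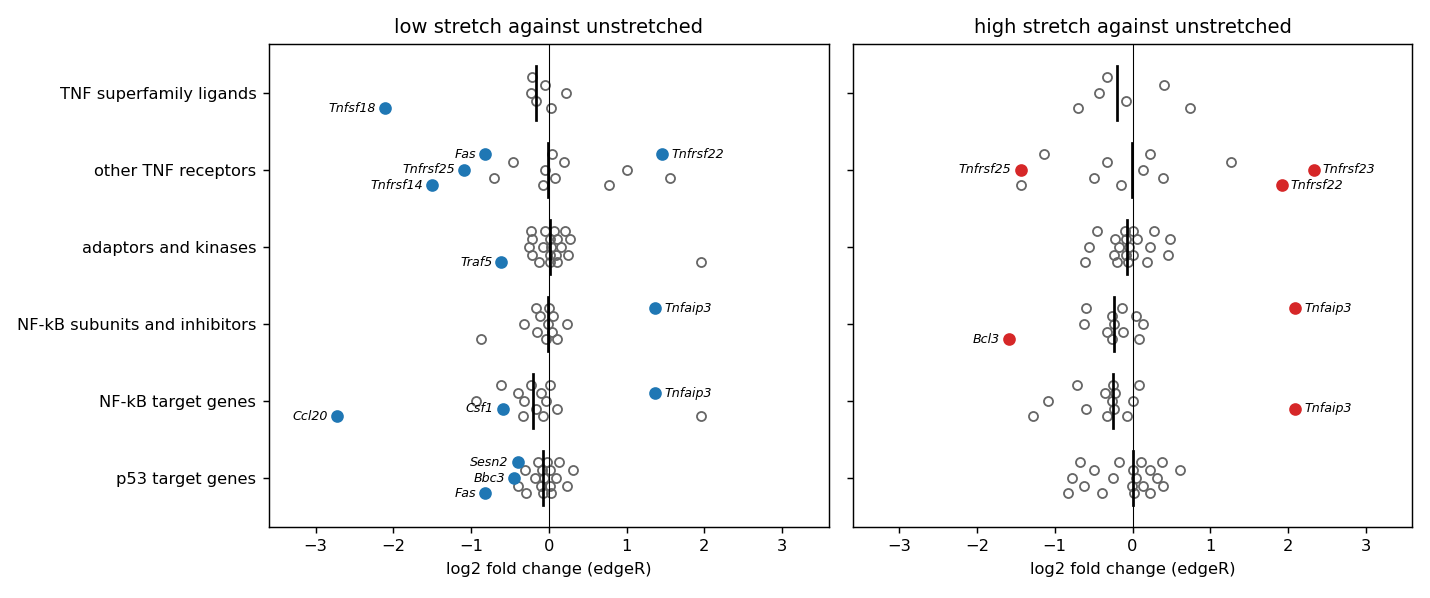
Log2 fold change of the tested genes of 6 pathway lists under low stretch (left) and high stretch (right). Filled points are genes with an adjusted p under 0.05 (edgeR), open points are the others, bars are list medians, and Tnfaip3 and Fas stand in 2 lists each. Over the 6 lists 2 genes rose and 9 fell under low stretch, beside 1.85% and 3.6% of all genes. Under high stretch 3 rose and 2 fell, beside 1.31% and 2.16% of all genes.

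Over the 105 genes of the 6 lists, 82 were tested under low stretch and 77 under high stretch, with median log2 fold changes of -0.05 and -0.10. Of all genes tested 5.45% were called under low and 3.47% under high stretch. Many of the calls in the lists were lost when 1 sample was left out. Under low stretch Fas and Csf1 passed without each of the 9 samples in turn, Traf5 and Tnfsf18 in 8 of the 9 fits, Tnfaip3 and Tnfrsf22 in 2 and Tnfrsf25 in 1. Under high stretch Tnfaip3 passed in 5 of 6 such fits, Tnfrsf22 and Tnfrsf23 in 3 and Bcl3 and Tnfrsf25 in 2. In number, 11 genes passed under low stretch, and 2 did without unstretched replicate 3 (Fas and Csf1), 5 without unstretched replicate 2, 6 without unstretched replicate 1 or low-stretch replicate 2, and 7 without low-stretch replicate 1 or 4. Under high stretch 5 passed, and 0 did without high-stretch replicate 3, 1 without high-stretch replicate 1 or unstretched replicate 1 (Tnfaip3), and 13 without unstretched replicate 3. Shares of all genes called in the fits with 1 sample left out are not given here, so nothing is read from these counts.

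The genes whose levels ran most alike over the 15 samples were found by Pearson's r of log2 CPM less the mean of the experiment, among 12936 genes for Edar and 12935 for the others. This is a description over samples that share their stretch groups. Edar, included although its mean of 0.724 CPM was under the level of 1 CPM asked of the other members, ran with Gm31036 (r = 0.984), Fgfr3 (r = 0.982), a fibroblast growth factor receptor, and Rasgrp2 (r = 0.982). Fgfr3 had group means of 99 CPM in unstretched and 22.6 CPM in low-stretch samples and of 151 and 22 CPM in experiment 2. Eda2r ran with Apbb2 (r = 0.930), Fgfr1op (r = 0.907) and Ptp4a1 (r = 0.899). The most alike gene was Atp13a2 for Tnfrsf1a (r = 0.983), Aldh1a2 for Tnfrsf1b (r = 0.973), Shq1 for Tnfrsf12a (r = 0.980), Gm13375 for Tnfrsf19 (r = 0.978) and Pcolce2 for Tnfrsf21 (r = 0.983).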

How the data were processed

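Poly(A) RNA was sequenced as stranded paired-end libraries, per the labels' protocols. The authors deposited raw gene counts for 55416 genes and TPM values for 140789 transcripts. The submitters' processing notes name STAR 2.7.5c, Subread 2.0.0 with featureCounts, Salmon 1.9.0, DESeq2 1.38.3 and mm39, and the annotation release and strand setting are not given in the sources used here. Symbols and transcript types came from GENCODE M21, which matched 137189 transcripts; promoters came from RefSeq (GRCm38.p6). Groups came from sample titles.

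R 4.3.3 and edgeR 4.0.16 were used for the gene tests (TMM, filterByExpr, quasi-likelihood F test, Benjamini-Hochberg threshold 0.05) over all genes. The SE is the log2 fold change divided by the square root of F. Transcript use was tested with limma 3.58.1 on log2((TPM + 0.1) / (other TPM of the gene + 0.1)), for genes of at least 1 TPM and mean fractions from 0.05 to 0.95. CPM used TMM-scaled library sizes. Scripts were tested on simulated data. A 0 in the TPM table can be a failed estimate.

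The members, gene lists and tests were chosen with earlier results of these data known. Named list genes were the members' ligands, Traf6, Nfkbia, Tnfaip3, Birc3, Cdkn1a and Mdm2, and up to 4 genes per list and comparison with the largest change among those with an adjusted p under 0.05. Similarity was computed on log2 CPM (prior count 2). Alternatives were DESeq2 1.42.0, RLE size factors, other count filters (none, or mean counts from 100 up), blocks on replicate number or on runs of plate codes (divided before each unstretched sample, a reading the labels do not state), all 15 samples in one fit, other pseudocounts, and each sample left out. The GC correction (lowess, span 0.3, 99.01% of genes with a value) and the test of transcript use between the unstretched groups were added after the data were seen.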

Additional observations from a re-analysis of the deposited data

Results flagged for a closer look

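Over the 6 low-stretch samples, 31 named genes were checked for a sample far from the others, and 1 had one. Ccl20 had 0.0323 CPM in low-stretch replicate 4, against 0.00313 to 0.0131 CPM in the other 5. That value rests on 9 counts. Chance flags about 1 in 20 groups.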

How the results depend on the processing

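Edar was lower under all 16 alternatives for low stretch (log2 fold change -3.84 to -2.73) and all 13 for high stretch (-5.36 to -4.81). The main limits are 3 unstretched samples per experiment, low counts of Edaradd and of Edar under stretch, and amplitude confounded with experiment. Where a result moved, the cause was not tested unless stated.

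Members called under low stretch numbered 2, and 1 with a mean count of at least 100 (fewer genes tested), 1 with all 15 samples in one fit, 6 with the plate run block and 1 to 3 with 1 sample left out. Of all genes 5.45% were called in the main low-stretch fit and 28.2% with the plate run block. Under high stretch members called numbered 3, and 5 with the replicate block or the identical run block, 1 in the fit of all 15 samples and 1 to 4 with 1 sample left out. Of all genes 3.47% were called in the main high-stretch fit and 8.35% with the run block. List genes called under low stretch numbered 11, and 18 with DESeq2, 6 with the replicate block, 29 with the run block and 2 to 12 with 1 sample left out; under high stretch they numbered 5, and 8 with DESeq2, 11 with either block and 0 to 13 with 1 sample left out. Between the unstretched groups 3 members were called, 0 after the GC correction and 2 to 4 with 1 sample left out. Their member transcripts called numbered 2, and 1 with a pseudocount of 0.01 or 1 TPM, 7 with no filter and 0 to 1 with 1 sample left out. In the main fits between the unstretched groups 62.5% of all genes and 31.5% of all transcripts were called. Shares of all genes or transcripts in the other fits are not given here, so nothing is read from these counts about the members or lists.

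Same-numbered samples did not all deviate together (mean correlation -0.0693, from -0.436 to 0.359, in experiment 1 and 0.179, from -0.176 to 0.478, in experiment 2), so the numbers are not taken as a pairing. In experiment 2 the runs are the same pairs as the numbers and are no second check. In experiment 1 samples of the same run correlated with a mean of 0.393, against -0.295 for other runs. All these correlations are of deviations from the group mean, which pulls pairs within 1 group toward negative values. Pairs of other runs include such pairs, so their mean is in part set by the method. The labels do not state the runs. The replicate block called 2 members under low stretch.

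With the replicate block the difference between the stretch effects changed sign for Tnfrsf1b (-0.11), Tnfrsf12a (-0.09) and Tnfrsf19 (0.57), and the low-stretch value for Traf6 (-0.02), Nfkbia (0.11) and Birc3 (0). With the run block that of Lta did (-0.10). Between the unstretched groups Tnfrsf21 changed sign with a mean count of at least 100 (-0.05) and Tnfrsf21 (-0.33) and Eda2r (0.01) with the GC correction. With 1 sample left out, the difference between effects ranged from -0.29 to 0.70 for Tnfrsf1b, -0.37 to 0.54 for Tnfrsf12a, -0.06 to 0.76 for Tnfrsf21, -0.16 to 0.15 for Eda2r, -1.77 to 0.15 for Tnfrsf19 and -0.35 to 0 for Tnfrsf1a; the unstretched comparison of Tnfrsf21 from -0.31 to 0.52; the high-stretch value of Eda2r from -0.28 to 0.01, Traf6 from -0.23 to 0.18 and Birc3 from -0.55 to 0.34; and the low-stretch value of Lta from -0.19 to 0.17, Nfkbia from -0.09 to 0.03, Cdkn1a from -0.11 to 0.20 and Mdm2 from -0.08 to 0.13. None of these genes passed the test in that comparison, apart from Eda2r between the unstretched groups.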
